A study of Mus musculus with 11 samples.

Results

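Cytosolic nucleic acid sensing was examined through 9 genes that were chosen by name: the RNA helicases Ddx58 (RIG-I), Ifih1 (MDA5) and Dhx58 (LGP2), the Z-form nucleic acid sensor Zbp1, the RNA-activated kinase Eif2ak2 (PKR), the adaptor Mavs, the kinases Tbk1 and Ikbke (IKK epsilon), and the RNA editing enzyme Adar (ADAR1). All 9 were found among the 36529 genes listed in the count files. The 9 genes, and the lists and motifs below, were chosen with earlier results of these data known. Their shares beside those of all genes are descriptions, not tests. RNA was sequenced from 11 samples of BV2 cells, a transformed mouse microglia line labelled as C57BL/6. In the first experiment, 3 samples received nApoE4, an amino-terminal fragment (residues 1 to 151) of human apolipoprotein E4, at 25 μg/ml for 5 h, and 3 untreated samples served as controls (ControlA). In the second experiment, 2 samples received the matching nApoE3 fragment at the same dose and time, and 3 untreated samples served as controls (ControlB). The fragments differ at a single residue, which is cysteine in nApoE3 and arginine in nApoE4, and both carry a histidine tag. The sample labels name a PBS vehicle for the controls, whereas the study's methods name an equivalent addition of conditioned media, so what the controls received is not settled here. Each fragment was run with its own controls, and fragment and experiment cannot be told apart. The study's methods call the transcriptome measurements independent, and a figure caption names 3 independent trials, although only 2 nApoE3 samples are given here. Neither these words nor the labels say that the samples came from separate cultures. The p-values therefore measure the spread between these samples, which may be technical.

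RIG-I and MDA5 bind double-stranded or uncapped RNA in the cytosol and signal through MAVS on the mitochondrial surface. LGP2 is a related helicase that lacks the signaling domains and tunes the other helicases. MAVS recruits TBK1 and IKK epsilon, which phosphorylate IRF3 and IRF7 and so start the transcription of type I interferon, and interferon in turn raises many of the sensors. PKR halts translation when it binds double-stranded RNA, ADAR1 edits adenosines in such RNA and keeps self RNA from being sensed, and ZBP1 binds Z-form RNA and DNA and can trigger necroptosis. Microglia, the macrophages of the brain, use these sensors against viruses and in sterile inflammation.

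Counts on genes ranged from 39732710 to 44162511 per sample in the nApoE4 experiment and from 55809688 to 69768666 in the nApoE3 experiment, and 76.0 to 77.7% of the tallied reads fell on genes. Of 12 microglia and macrophage markers, 9 had a mean above 1 CPM (counts scaled to library size with TMM factors) in every group, whereas P2ry12 was at 0 in all 11 samples, and Aif1 and Cx3cr1 stayed below 1 CPM. The summed marker level was 3397 to 3717 CPM in ControlA, 3663 to 3755 with nApoE4, 2605 to 2711 in ControlB and 3210 to 3232 with nApoE3. This sum hides opposite directions among the 9. Spi1 (means of 268, 678, 213 and 433 CPM in these groups) and Ptprc (254, 489, 235 and 431) had higher means with both fragments. Csf1r, Itgam, Tyrobp, Fcgr1 and Tmem119 had lower means with both. Cd68 and Adgre1 had lower means with nApoE4 and higher means with nApoE3. Summed astrocyte markers were 1.36 to 1.56 CPM in ControlA and 6.88 to 7.89 with nApoE4, and 1.45 to 1.92 in ControlB and 5.88 to 6.01 with nApoE3. Most of this sum was Slc1a2, with means of 0.999, 6.43, 1.06 and 4.37 CPM in these groups. Slc1a3 was also higher in the treated groups, Aldh1l1 was lower, and the means of Gfap and Aqp4 were at most 0.0523 and 0.0101 CPM. Summed neuron markers were at most 6.39 CPM and summed lymphocyte markers at most 0.563 CPM in any sample. Over 4 oligodendrocyte markers, of which Mog was at 0 in all 11 samples, the summed level was 9.14 to 11.4 CPM in ControlA, 5.27 to 7.20 with nApoE4, 21.7 to 23.1 in ControlB and 19.96 to 23.6 with nApoE3. Nearly all of that sum was Mbp, with means of 10.3, 6.13, 22.5 and 21.7 CPM in these groups. The part of these markers in the results was not tested. In bulk RNA, fewer cells of a kind and less RNA per cell cannot be told apart.

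Type I interferon acts through the interferon-stimulated response element (ISRE). Sequences that hold its core in the promoters of these genes are shown as a description, and their part in the responses was not tested. RefSeq promoter windows (GRCm38.p6), from 250 bases before to 50 after a start site, were matched for 7 of the 9 genes and not for Dhx58 or Zbp1. The ISRE core (GAAA, then any pair of bases, then GAAA), searched on both strands, was found in 3 of these 7 genes, and in 3.99% of the 27025 genes with a window (3.44% of 32851 windows). Each match is printed in the direction of its gene, with the core in capitals. Only the core of Ddx58 lies on the opposite strand and so reads as its reverse complement.
Ddx58, chr4:40239805-40239832, minus strand, core 3 to 12 bases after the start: ctgaggcagTTTCGATTTCctatggcca
Ifih1, chr2:62646206-62646232, minus strand, core 33 to 42 bases after the start: aagagaatcGAAACAGAAAccgatctg
Eif2ak2, chr17:78882536-78882563, minus strand, core 19 to 28 bases after the start: gtccgccggGAAAACGAAAcagaagaga

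With 1 mismatch allowed, 6 of the 7 genes matched, all but Mavs, against 38.9% of all genes with a window. The GAS element TTCNNNGAA, bound by STAT dimers, was found in 2 of the 7, Eif2ak2 and Adar, against 9.55% of genes. A single form of the kappa B element (GGGA, any base, then TTTCC) was searched and found in 0 of the 7, against 0.466% of genes. At so low a share, a count of 0 does not tell these genes apart from others. Dhx58 and Zbp1 have no entry in these counts. A match here describes the letters of the window only.

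All 9 genes differed from their controls with both fragments, in the same direction. After nApoE4, 8 rose and 1, Mavs, fell at an adjusted p under 0.05, and the counts were the same after nApoE3. The background was high: 57.2% of 14240 genes tested passed with nApoE4 (28.6% higher, 28.6% lower) and 67.7% of 14817 with nApoE3 (33.1% higher, 34.6% lower). The fitted biological coefficient of variation was 0.0838 with nApoE4 and 0.0262 with nApoE3, and 0.0666 in the fit of all 11 samples. Shares called and p-values depend on this spread and on depth as well as on the size of a response. The median log2 fold change of the 9 was 2.44 with nApoE4, against 0.00 over all genes tested, and 3.01 with nApoE3, against 0.00. Treated and control samples did not overlap for any of the 9 with either fragment, as for 63.6% of all genes with nApoE4 and 77.6% with nApoE3. When library totals replaced the TMM factors, the genes called higher and lower moved to 3316 and 4993 with nApoE4 and to 3595 and 6783 with nApoE3, from 4067 and 4078 and from 4907 and 5127, and the median over all genes shifted by -0.13 with nApoE3. The 9 genes kept their direction and their call.

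**Figure D1:**
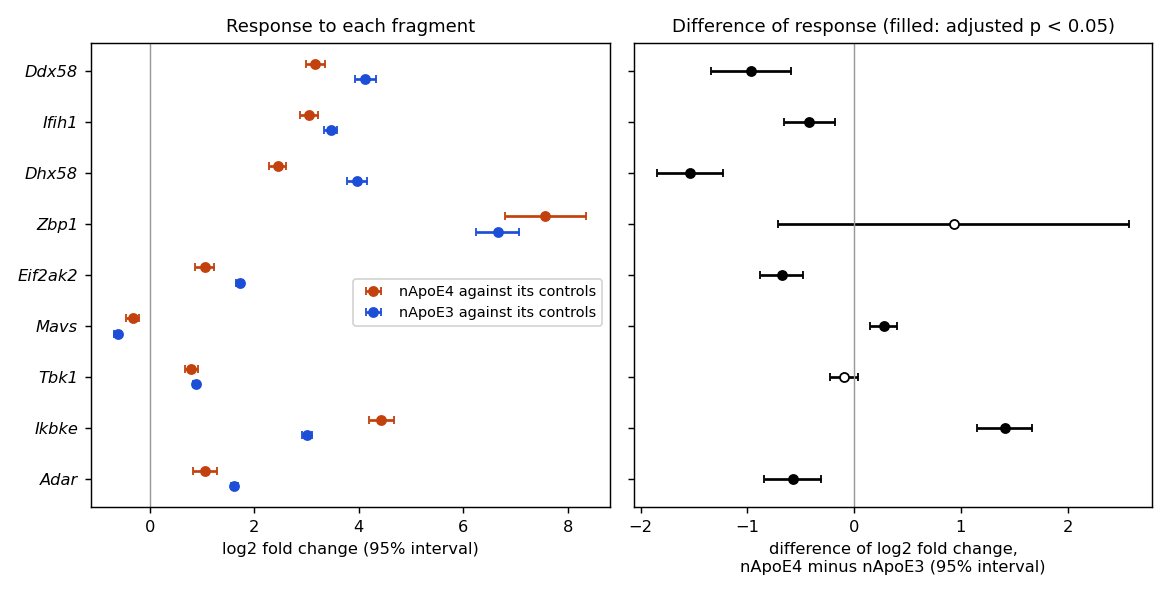
Log2 fold change of each gene with its 95% interval, for nApoE4 (orange) and nApoE3 (blue) against their own controls in the left panel, and the difference of those responses, nApoE4 minus nApoE3, in the right panel, where filled points passed an adjusted p under 0.05. Mavs is the only gene left of zero on the left, Ikbke and Mavs are the filled points right of zero on the right, and Zbp1 and Tbk1 are the open points.

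The RNA helicases rose strongly. Ddx58 (chr4:40203777-40239825, minus strand), which senses short RNA with a 5′ triphosphate, stood at 5.78, 5.33 and 6.47 CPM in ControlA and at 52.9, 53.1 and 51.0 CPM with nApoE4. In the second experiment it stood at 5.45, 6.315 and 8.46 CPM in ControlB and at 121 and 112 CPM with nApoE3. Every treated sample lay far above every control, and the nApoE3 samples were the highest of the 11. The log2 fold change was 3.16 ± 0.080 (SE) with nApoE4, or 8.96-fold (edgeR adjusted p = 1.89e-09), and 4.12 ± 0.093 with nApoE3, or 17.4-fold (adjusted p = 1.59e-12). Only 273 of the 14240 genes tested with nApoE4 and 156 of 14817 with nApoE3 had a larger log2 fold change.

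Ifih1 (chr2:62595618-62646255, minus strand), which senses long double-stranded RNA, stood at 8.43, 8.72 and 10.1 CPM in ControlA and at 73.7, 77.0 and 74.5 CPM with nApoE4. In ControlB it stood at 9.77, 10.4 and 11.96 CPM, and with nApoE3 at 119.8 and 116 CPM. The pattern was that of Ddx58, with close replicates and no overlap. The rise was 8.29-fold with nApoE4 (log2 fold change 3.05 ± 0.078, edgeR adjusted p = 1.95e-09) and 11.01-fold with nApoE3 (3.46 ± 0.054, adjusted p = 8.10e-14).

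Dhx58 (chr11:100694884-100704271), the helicase that regulates the other RNA sensors, stood at 4.88, 4.64 and 4.69 CPM in ControlA and at 25.5, 25.55 and 26.0 CPM with nApoE4. It stood at 2.31, 1.89 and 2.89 CPM in ControlB and at 37.1 and 36.8 CPM with nApoE3. The controls of the second experiment were thus the lower ones and its treated samples the higher ones. The rise was 5.44-fold with nApoE4 (log2 fold change 2.44 ± 0.072, edgeR adjusted p = 4.49e-09) and 15.7-fold with nApoE3 (3.97 ± 0.088, adjusted p = 1.32e-12).

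Zbp1 (chr2:173206612-173218959) was the gene nearest to silence in the controls. It had 1, 2 and 0 counts in the ControlA samples and 186, 221 and 187 counts (4.34, 5.32 and 4.71 CPM) with nApoE4. In ControlB it had 15, 4 and 11 counts, and with nApoE3 1029 and 841 counts (17.7 and 14.9 CPM). All 3 ControlA samples lay under the floor of 3 counts, the nApoE3 samples were the highest of the 11, and treated and control samples were far apart in both experiments. Since the controls were this low, the ratio of summed counts is given with its counting interval. That ratio, per library total, was 202 (95% exact interval 68.7 to 981) with nApoE4, from 594 against 3 counts, and 93.3 (65.1 to 139) with nApoE3, from 1870 against 30 counts. These intervals cover counting error only. The fitted log2 fold changes, which depend on the prior count where controls are this low, were 7.57 ± 0.35 with nApoE4 (edgeR adjusted p = 8.00e-08) and 6.66 ± 0.19 with nApoE3 (adjusted p = 1.24e-11), and 20 and 25 genes had larger ones. The value with nApoE4 became 8.40 without the second ControlA sample and 7.01 without the third.

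The effectors that act on double-stranded RNA rose less. Eif2ak2 (chr17:78850504-78882572, minus strand), which phosphorylates eIF2 alpha and so halts translation, stood at 49.4, 42.0 and 51.4 CPM in ControlA and at 99.0, 98.5 and 96.6 CPM with nApoE4. It stood at 65.1, 67.6 and 69.9 CPM in ControlB and at 222 and 223 CPM with nApoE3. ControlA was the lowest group and nApoE3 the highest, again without overlap. The rise was 2.07-fold with nApoE4 (log2 fold change 1.05 ± 0.078, edgeR adjusted p = 2.52e-06) and 3.28-fold with nApoE3 (1.72 ± 0.030, adjusted p = 1.86e-13).

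Adar (chr3:89714469-89753455) stood at 90.8, 74.9 and 96.9 CPM in ControlA and at 178, 197 and 169 CPM with nApoE4. It stood at 70.6, 71.0 and 75.5 CPM in ControlB and at 228 and 218 CPM with nApoE3. The second ControlA sample was as low as the ControlB samples, and every treated sample lay above every control. The rise was 2.08-fold with nApoE4 (log2 fold change 1.06 ± 0.10, edgeR adjusted p = 1.39e-05) and 3.07-fold with nApoE3 (1.62 ± 0.033, adjusted p = 5.97e-13). Adar shares 1365 exon bases with Chrnb2, which had 180 to 259 counts, and Eif2ak2 shares 174 with Gm26637, which had 32 to 233 counts. Whether the counting used strand is not stated, and the other genes that overlap a member had at most 7 counts where the files list them.

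Mavs (chr2:131234063-131248025), the adaptor on which RIG-I and MDA5 converge, was the one gene that fell. It stood at 100.1, 99.2 and 98.7 CPM in ControlA and at 79.3, 80.9 and 76.3 CPM with nApoE4. In ControlB it stood at 88.4, 88.4 and 89.3 CPM, and with nApoE3 at 57.8 and 58.2 CPM. The coefficient of variation was 0.710% in ControlA and 0.574% in ControlB, and all treated samples lay below them. On the log2 scale Mavs fell by 0.33 with nApoE4 (SE 0.053, edgeR adjusted p = 5.50e-04) and by 0.62 with nApoE3 (SE 0.028, adjusted p = 1.09e-09), to 0.796 and 0.651 of the control level.

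The kinases below MAVS differed from each other in size of response. Tbk1 (chr10:121546455-121586794, minus strand) stood at 66.6, 69.9 and 71.8 CPM in ControlA and at 119.5, 122 and 119 CPM with nApoE4. It stood at 69.9, 68.85 and 68.8 CPM in ControlB and at 128 and 126 CPM with nApoE3. The control ranges of the experiments overlapped, and the nApoE3 samples lay slightly above the nApoE4 samples. The rise was 1.73-fold with nApoE4 (log2 fold change 0.79 ± 0.055, edgeR adjusted p = 1.52e-06) and 1.83-fold with nApoE3 (0.87 ± 0.026, adjusted p = 2.13e-11).

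Ikbke (chr1:131254600-131279601, minus strand), the inducible relative of Tbk1, stood at 12.96, 10.04 and 12.85 CPM in ControlA and at 249.5, 271 and 249.1 CPM with nApoE4. It stood at 16.1, 16.1 and 17.9 CPM in ControlB and at 136 and 134 CPM with nApoE3. Unlike for the sensors, the nApoE4 samples were the highest of the 11. The rise was 21.5-fold with nApoE4 (log2 fold change 4.43 ± 0.11, edgeR adjusted p = 1.46e-09), with 126 genes above it, and 8.05-fold with nApoE3 (3.01 ± 0.041, adjusted p = 2.45e-14), with 317 genes above it.

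**Figure D2:**
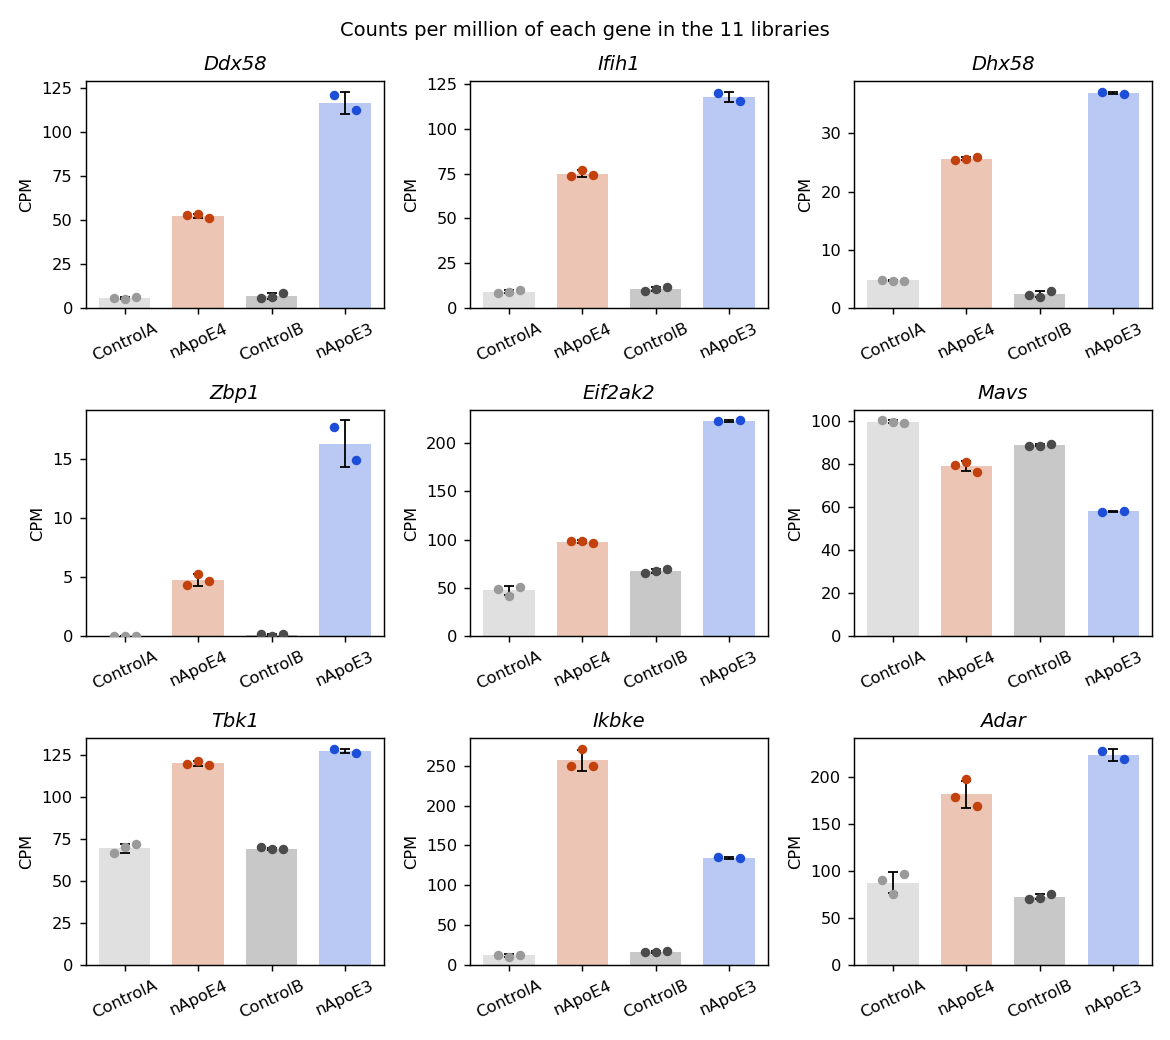
CPM of each of the 9 genes, one panel per gene with its own linear axis from 0. Points are the 11 samples, bars are group means and error bars are SD (n = 3, and n = 2 for nApoE3). Treated points lie above their own controls in 8 panels and below them for Mavs, and Ikbke is the panel in which nApoE4 stands highest.

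Whether the fragments differed in their effect was tested as the difference between the responses, each relative to its own controls, in a fit of all 11 samples. It passed an adjusted p under 0.05 for 7 of the 9 genes, 2 with the higher value for nApoE4 and 5 with the lower, against 28.3% of 15287 genes tested (14.4% higher, 13.9% lower). The response to nApoE3 was larger for Dhx58 (difference of log2 fold change -1.54 ± 0.14, edgeR adjusted p = 5.25e-06), Ddx58 (-0.96 ± 0.17, adjusted p = 0.00109), Eif2ak2 (-0.68 ± 0.093, adjusted p = 1.48e-04), Adar (-0.57 ± 0.12, adjusted p = 0.00372) and Ifih1 (-0.42 ± 0.11, adjusted p = 0.0129). The response to nApoE4 was larger for Ikbke (1.41 ± 0.12, adjusted p = 2.59e-06), by 2.66-fold, and the fall of Mavs was smaller with nApoE4 (0.28 ± 0.058, adjusted p = 0.00302). For Tbk1 the difference was -0.09 (95% interval -0.22 to 0.04, edgeR adjusted p = 0.302), and for Zbp1 it was 0.93 (-0.71 to 2.57, adjusted p = 0.403), an interval that runs from 0.611-fold to 5.95-fold. The call of Ifih1 was lost without the first nApoE3 sample (-0.39, edgeR adjusted p = 0.0577). These differences are between fragments and also between experiments, which cannot be told apart.

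The untreated groups, which ran alongside the treated samples, show how far the experiments differed without a fragment. Of the 8 genes that passed the count filter in this comparison, ControlB was higher than ControlA for 2 and lower for 3, against 69.3% of 14249 genes called (34.4% higher, 34.9% lower). Eif2ak2 was higher in ControlB (log2 difference 0.49 ± 0.077, edgeR adjusted p = 6.56e-04), as was Ikbke (0.47 ± 0.11, adjusted p = 0.00444). Dhx58 was lower in ControlB (-1.02 ± 0.15, adjusted p = 4.86e-04), as were Mavs (-0.18 ± 0.039, adjusted p = 0.00367) and Adar (-0.29 ± 0.091, adjusted p = 0.0203). The control groups did not overlap for 4 of these genes, all but Adar, as for 74.1% of all genes, and the call of Adar was lost without any one of 4 samples (adjusted p = 0.0570 to 0.0772 without ControlA sample 1 or 3 or ControlB sample 1 or 2). Ddx58 (0.18, 95% interval -0.20 to 0.56), Ifih1 (0.22, -0.02 to 0.45) and Tbk1 (-0.02, -0.12 to 0.08) did not pass, and Ifih1 passed without the third ControlA sample (0.30, edgeR adjusted p = 0.0300). Dhx58 was thus lower in ControlB than in ControlA and higher with nApoE3 than with nApoE4.

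Levels of different genes were compared per kilobase of exon, from the merged exons of GENCODE M21. In ControlA the order was Mavs (29.7 CPM per kilobase), Tbk1 (17.8), Adar (10.8), Eif2ak2 (9.31), Dhx58 (1.45), Ikbke (1.33), Ifih1 (1.11), Ddx58 (0.831) and Zbp1 (0.00643). The neighbours Adar and Eif2ak2 overlapped in range, as did Dhx58 with Ikbke and Ikbke with Ifih1. In ControlA, then, the adaptor and Tbk1 led, and the 4 sensors and Ikbke held the lowest 5 places.

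With nApoE4 the order was Tbk1 (30.7), Ikbke (28.5), Mavs (23.6), Adar (22.4), Eif2ak2 (19.2), Ifih1 (9.19), Dhx58 (7.85), Ddx58 (7.42) and Zbp1 (1.36), with only Mavs and Adar overlapping. In ControlB it was Mavs (26.5), Tbk1 (17.7), Eif2ak2 (13.2), Adar (8.92), Ikbke (1.85), Ifih1 (1.31), Ddx58 (0.956), Dhx58 (0.722) and Zbp1 (0.0446), where Ifih1 overlapped with Ddx58 and Ddx58 with Dhx58. With nApoE3 it was Eif2ak2 (43.5), Tbk1 (32.6), Adar (27.5), Mavs (17.3), Ddx58 (16.5), Ikbke (14.9), Ifih1 (14.4), Dhx58 (11.3) and Zbp1 (4.61), with no overlap between neighbours. Mavs thus went from first place in both control groups to the third with nApoE4 and the fourth with nApoE3. The order within treated groups depends on the length used: with the longest transcript in place of merged exons, 3 of 9 genes kept their place with nApoE4, where Ikbke then led at 43.8 against 39.7 for Tbk1, and 5 of 9 with nApoE3. By that length Mavs (25.8 with nApoE4 and 19.0 with nApoE3) held the fourth place with nApoE4, below Adar, and the seventh with nApoE3, below Ddx58 (30.1), Ikbke (23.0) and Ifih1 (21.5).

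**Figure D3:**
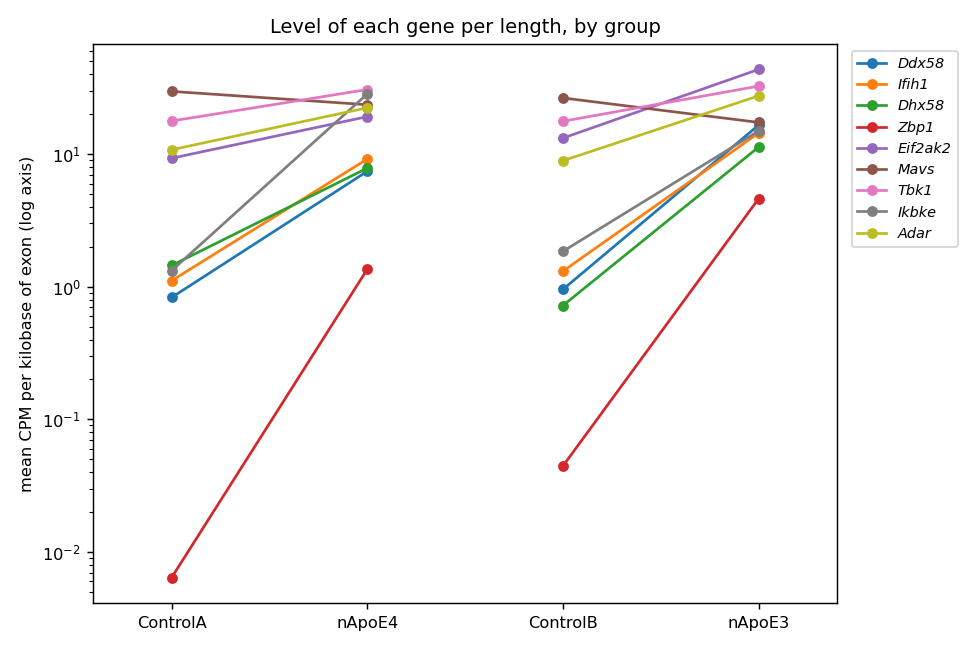
Mean level of each gene in CPM per kilobase of merged exon, on a log axis, with lines from each control group to its treated group. All lines rise except that of Mavs, and the sensors and Ikbke come closer to Tbk1, Mavs, Adar and Eif2ak2 in both treated groups.

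Ratios within a library do not depend on its total. The ratio of Ikbke to Tbk1, per kilobase, was 0.0844, 0.0622 and 0.0776 in ControlA and 0.905, 0.968 and 0.909 with nApoE4. It was 0.0999, 0.101 and 0.113 in ControlB and 0.458 and 0.459 with nApoE3. By this length Ikbke thus came close to Tbk1 with nApoE4 and stayed below it with nApoE3. Ddx58 to Mavs went from a mean of 0.0280 ± 0.0029 (SD, n = 3) in ControlA to 0.315 ± 0.0030 (n = 3) with nApoE4, and from 0.0360 ± 0.0081 (n = 3) in ControlB to 0.954 ± 0.054 (n = 2) with nApoE3. With the longest transcript, a choice made after seeing the data, the Ddx58 to Mavs ratio was 0.524 ± 0.0050 with nApoE4 and 1.59 ± 0.090 with nApoE3, and that of Ikbke to Tbk1 was 1.10 ± 0.042 with nApoE4 and 0.547 ± 0.00081 with nApoE3, so whether a ratio lies above or below 1 depends on the length used. By merged exons, Dhx58 to Ddx58 went from 1.75 ± 0.17 to 1.06 ± 0.036 in the first experiment, whereas ControlB (0.645 to 0.912) and nApoE3 (0.661 to 0.707) overlapped in the second. Adar to Eif2ak2 overlapped between treated and control samples in the first experiment (1.12 to 1.19 and 1.10 to 1.26), and in the second it was 0.662 to 0.683 in ControlB and 0.617 to 0.646 with nApoE3.

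**Figure D4:**
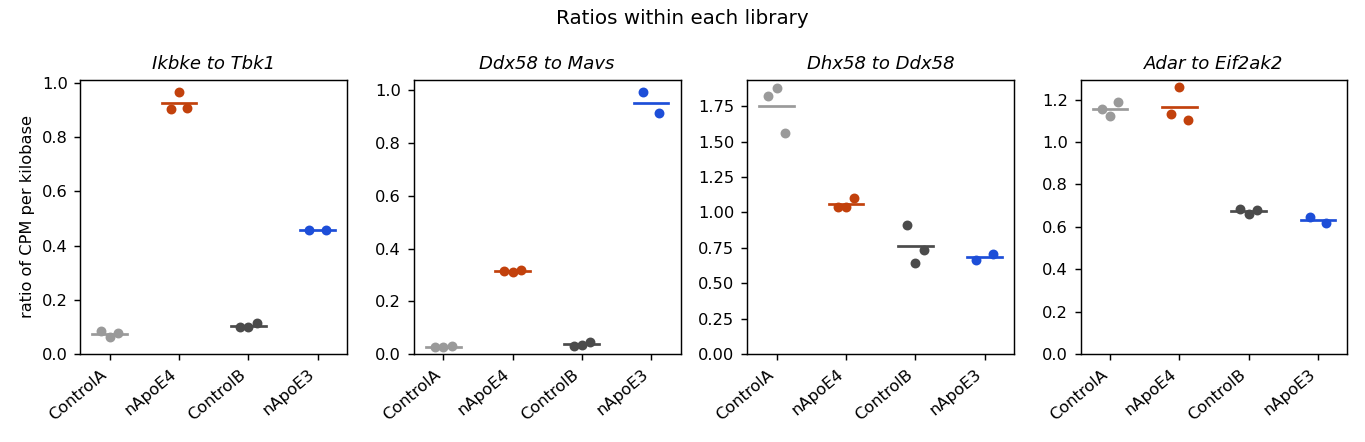
Ratios of CPM per kilobase of merged exon between pairs of genes within each of the 11 libraries, on linear axes from 0, with group means as lines. Ikbke to Tbk1 stands highest with nApoE4 (0.905 to 0.968) and Ddx58 to Mavs highest with nApoE3 (0.916 to 0.992).

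Around the sensors, 121 genes in 9 lists written by hand, with earlier results of these data known, gave the rest of the pathway. With nApoE4, 54 of 113 tested rose and 23 fell (median log2 fold change 0.16), and with nApoE3, 65 of 114 rose and 32 fell (median 0.16), to be read, as are the counts of each list, against the 28.6% of all genes that rose and 28.6% that fell with nApoE4 and the 33.1% and 34.6% with nApoE3. By their medians, interferon receptor signaling and the scaffolds of the kinases stood highest. Of 10 genes of type I interferon receptor signaling, 9 rose and 0 fell with nApoE4 (median 2.02) and all 10 rose with nApoE3 (median 2.22). Of 9 scaffolds and factors of Tbk1 and Ikbke, 8 rose with nApoE4 and 0 fell (median 0.91), and 8 rose and 1 fell with nApoE3 (median 1.04).

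Ifnb1, which encodes interferon beta, had 0 to 2 counts in ControlA and 30 to 50 with nApoE4, and 3 to 9 in ControlB and 72 to 75 with nApoE3. Its level was thus near 1 CPM even where it rose (fitted log2 fold change 4.93 ± 0.51 and 3.63 ± 0.34). The interferon-responsive factor Irf1 rose by 3.71 on the log2 scale with nApoE4 and 2.44 with nApoE3. Usp18, which damps the interferon receptor, rose by 2.50 and 4.15. Irf7, the substrate of the kinases that amplifies interferon, rose by 3.89 with nApoE4 (49.2 ± 0.10 CPM against 3.32 ± 0.41, SD, n = 3) and by 5.33 with nApoE3, whereas Irf3, its constitutive relative, was at -0.09 with nApoE3, a call lost in DESeq2 (adjusted p = 0.147), with all 11 samples in 1 fit (edgeR adjusted p = 0.333) and without ControlB sample 1 or 2 or either nApoE3 sample (edgeR adjusted p = 0.0591 to 0.0930). The adaptor Optn, which recruits Tbk1, rose by 2.32 with nApoE4 and 1.38 with nApoE3, and the NF-kappa B precursor Nfkb1 by 2.26 and 2.13.

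Among activators and adaptors of the RNA helicases, 5 of 16 rose and 2 fell with nApoE4, and 11 rose and 3 fell with nApoE3. With nApoE4 and nApoE3, the helicase Ddx60 rose by 4.27 and 4.20 on the log2 scale and Traf2 by 1.17 and 0.76. The ubiquitin ligase Trim25, which activates RIG-I, rose by 0.28 and 1.16. The phosphatase subunit Ppp1cc fell by 0.45 with nApoE4 and 0.23 with nApoE3, and the kinase Ripk1 by 0.41 and 0.43. Among the brakes, 7 of 16 rose and 1 fell with nApoE4, and 9 of 17 rose and 5 fell with nApoE3. The deubiquitinase Tnfaip3 (A20) led with 3.71 and 4.07, and Cyld rose by 0.70 with nApoE4 and 0.29 with nApoE3. The calls of Trim38 (-0.72 with nApoE4, 19 to 44 counts in that experiment), March5 (1.25 with nApoE3, 11 to 65 counts) and Nlrx1 (-2.95 with nApoE3, 1 to 19 counts) rest on low counts. That of Trim38 was lost in DESeq2 (adjusted p = 0.0753) and without ControlA sample 2 or 3 or nApoE4 sample 1 or 2, and that of March5 without the first ControlB sample (1.14, edgeR adjusted p = 0.0513) or the second nApoE3 sample (0.71, adjusted p = 0.229).

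In DNA sensing, 6 of 18 genes were higher and 6 lower with nApoE4 (33.3% each), and 6 were higher (33.3%) and 8 lower (44.4%) with nApoE3, so the shares that rose lay near those over all genes. The exonuclease Trex1, which clears cytosolic DNA, was at 2.30 and 2.64, on 603 to 6536 counts. In GENCODE M21 all 1147 of its exon bases are shared with Atrip. The annotation used for counting is not stated, so whether reads of Atrip are among these counts is not known. Polr3d rose by 0.49 and 0.72. Tmem173, which encodes STING, fell by 0.82 with nApoE4 and 0.36 with nApoE3. Prkdc fell by 0.61 with nApoE3 and was at -0.26 with nApoE4, where it did not pass (edgeR adjusted p = 0.120). Of the partners of Zbp1, 4 of 8 rose and 3 fell with nApoE4 and 5 rose and 2 fell with nApoE3, with Cflar, which restrains caspase-8, up by 3.30 and 3.14 and Casp6 at -1.20 and -0.76. Around PKR, 9 of 18 rose and 5 fell with each fragment. The phosphatase subunit Ppp1r15a, which reverses eIF2 alpha phosphorylation, rose by 1.86 with nApoE4 and 1.74 with nApoE3. Atf4 rose by 0.87 and 0.22 and Eif2b3 by 0.41 and 0.61, whereas the kinase Eif2ak3 (PERK) was at -1.05 and -0.84.

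Among RNA editing and double-stranded RNA binding proteins, 3 of 11 rose and 3 fell with nApoE4, and 4 rose and 5 fell with nApoE3. Stau2 rose by 0.57 and 0.25 and Zfr by 0.50 and 0.37. Adad2 was at -0.56 with nApoE4 and, without passing, at -0.53 with nApoE3. Adarb1, the other active editing enzyme of its family, fell by 0.46 with nApoE4 and 0.38 with nApoE3 while Adar rose. Of 10 endosomal receptors and their helpers, 4 rose and 4 fell with nApoE4, and 5 rose and 4 fell with nApoE3. The adaptors Ticam1 and Myd88 rose by 1.28 and 1.09 with nApoE4 and by 1.36 and 1.12 with nApoE3. Tlr3, which senses double-stranded RNA in endosomes, rose by 0.97 and 2.13. Tlr8 was at -3.62 and -4.29, on low counts in the treated samples. It had 69 to 109 counts in ControlA and 5 to 8 with nApoE4, and 222 to 311 in ControlB and 11 to 14 with nApoE3. In the difference of response, 14 of 114 partner genes passed with the higher value for nApoE4 (12.3%, against 14.4% of all genes) and 27 with the lower (23.7%, against 13.9%). The 14 became 9 without the second nApoE3 sample.

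**Figure D5:**
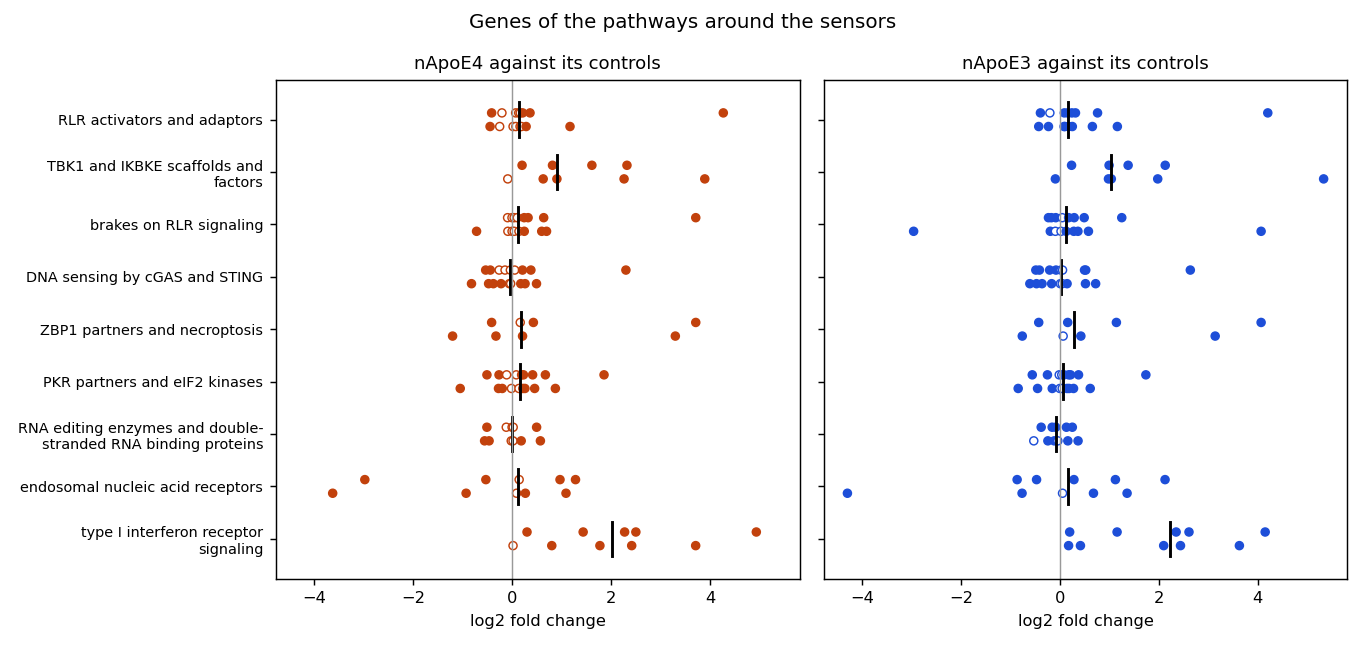
Log2 fold change of the genes in the 9 lists around the sensors, with nApoE4 (left) and nApoE3 (right) against their own controls. Points are genes, filled where the adjusted p was under 0.05, and black lines are list medians, which stand at 2.02 and 2.22 for interferon receptor signaling and near 0 for most other lists.

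The gene whose log2 CPM followed each of the 9 most closely over the 11 samples was sought among 11689 genes. It was Ifi203 for Ddx58 (Pearson r = 0.999), Dusp16 for Ifih1 (0.999), Mnda for Dhx58 (0.998), Slpi for Zbp1 (0.996), Ascc3 for Eif2ak2 (0.995), Plekhg5 for Mavs (0.997), Slc15a3 for Tbk1 (0.998), Stk40 for Ikbke (0.998) and Plekhm3 for Adar (0.994). Like Dhx58, Mnda was lower in ControlB than in ControlA (1.48 ± 0.36 and 3.84 ± 0.60 CPM) and higher with nApoE3 than with nApoE4 (68.1 ± 2.2 and 42.4 ± 2.5 CPM). Stk40 had the order of Ikbke, with 80.0 ± 2.7 CPM with nApoE4 and 50.9 ± 0.83 with nApoE3. These correlations describe 11 samples in 4 groups that share experiments and controls, and most of their size is the step from control to treated.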

How the data were processed

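Total RNA of 11 BV2 samples was sequenced by the authors as single-end reads of 75 bp. Per the labels and the study's methods, the authors trimmed reads with Trim Galore 0.5.0, checked them with FastQC 0.11.8, mapped them to GRCm38.p6 with HISAT2 2.1.0 and counted them on genes with HTSeq 0.11.0. The annotation release, strand setting and overlap mode are not given in the sources used here. The deposited files hold raw counts per gene and tallies of uncounted reads (22.3 to 24.0% of all tallied), which were left out of library sizes. At these depths 3 counts, the floor used, equal 0.0430 to 0.0755 CPM. Intervals on counts cover counting error only.

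Counts were fitted in R 4.3.3 with edgeR 4.0.16 (filterByExpr, TMM, quasi-likelihood F test, Benjamini-Hochberg adjustment over all genes tested, calls at adjusted p under 0.05). The nApoE4 samples were fitted with ControlA, the nApoE3 samples with ControlB and ControlB with ControlA, and the difference of responses was a contrast of 4 group means over all 11 samples. Standard errors are approximate (log2 fold change over the root of F), and 95% intervals use the t distribution with the fit's degrees of freedom. CPM use TMM factors over all 11 samples. Scripts were tested on simulated data. Named partner genes are, per list and fragment, the 2 called genes with the highest and the 1 with the lowest log2 fold change, and the gene most like each of the 9 was taken among genes with a mean of at least 1 CPM. The 9 genes, the lists and the motifs were chosen with earlier results of these data known. Alternatives were DESeq2 1.42.0, other size factors and filters, thinned counts, all samples in 1 fit, a replicate block, and leaving out each sample. A marker of oligodendrocytes is not reported here.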

Additional observations from a re-analysis of the deposited data

Results flagged for a closer look

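For 7 of the 9 genes the responses to the fragments differed by the test of the difference itself (edgeR, 11 samples), with fragment and experiment not separable. The difference of log2 fold change, nApoE4 minus nApoE3, was -0.96 for Ddx58, -0.42 for Ifih1, -1.54 for Dhx58, -0.68 for Eif2ak2, 0.28 for Mavs, 1.41 for Ikbke and -0.57 for Adar. Beside these stand the differences between the untreated groups, ControlB minus ControlA, of 0.18 for Ddx58, 0.22 for Ifih1, -1.02 for Dhx58, 0.49 for Eif2ak2, -0.18 for Mavs, 0.47 for Ikbke and -0.29 for Adar. Control levels enter each difference of response, and the part of these control differences in it was not tested. The lower depth of the first experiment was addressed only by the thinned counts, under which all 7 kept their call. Of the 7, Ifih1 did not pass without the first nApoE3 sample (edgeR adjusted p = 0.0577).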

How the results depend on the processing

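All 9 genes kept their direction and call in each of the 134 alternative values with nApoE4 and the 125 with nApoE3, and Zbp1 was not tested where at least 10 counts were asked of every sample. Of 170 alternative values for the difference of response, 168 kept their side of the threshold, the exceptions being Ifih1 without nApoE3 sample 1 and Mavs under the block. With the replicate number as a block, 1150 genes were higher and 1157 lower in the difference of response (2208 and 2123 without it), 1 of the 9 genes was higher, as Mavs did not pass (0.27, adjusted p = 0.0681), and 6 partner genes were higher. The block also ended the call of Trim38 with nApoE4 (adjusted p = 0.0507) and called Ifih1 between the control groups (adjusted p = 0.0363), and it changed no other call of the 9 genes or named partners. The numbers do not pair the samples, as the residuals of same-numbered samples correlated at -0.17 to -0.01. Leaving out each sample, partner genes higher in the difference ranged from 9 to 19. Between the control groups, 4 of the 9 were higher when all 11 samples were in 1 fit, Ddx58 ranged from -0.0055 to 0.33 and Tbk1 from -0.047 to 0.0026 with a sample left out, and Tbk1 passed with upper quartile factors (-0.13). With the longest transcript, 3 genes kept their place in the order with nApoE4 and 5 with nApoE3, and 1 mismatch raised the genes with an ISRE core to 6. The cause of these changes was not tested. Zbp1 had 0 to 2 counts in ControlA, and its difference of response ranged from 0.37 to 1.80 with a sample left out.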

Other observations

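Ripk3, the kinase through which ZBP1 triggers necroptosis, had 0 counts in all 11 samples, which allows up to 3 counts per sample. None of its exon bases is shared with another GENCODE gene, but the annotation used for counting is not stated, and the cause of the 0 counts was not tested. Mlkl, the target of Ripk3, stood at 76.1 ± 4.3 CPM (SD) in ControlA, 102 ± 2.3 with nApoE4, 81.5 ± 0.82 in ControlB and 181 ± 1.7 with nApoE3. Zcchc3, a cofactor of cGAS and of the RNA helicases, was also at 0 in all samples, and Dgcr8, a microRNA processing factor that most cells express, had 1 to 11 counts. A low or absent count in these files can therefore not be read as absence of the transcript. These genes were named after their values were seen.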
